A study of Homo sapiens with 18 samples.

Results

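The E2F transcription factors and the pocket proteins of the RB family were examined in U2OS-MycER cells after silencing of RAD21, a cohesin subunit, and activation of MycER. The members were taken by name, as the rows E2F1, E2F2, E2F3, E2F4, E2F5, E2F6, E2F7, E2F8, RB1 and RBL1, and they are 10 of the 23399 genes measured. U2OS is an established osteosarcoma line, transduced here with a retrovirus encoding MycER, a Myc protein fused to the estrogen receptor that 4-hydroxytamoxifen (OHT) activates. All 8 groups carried MycER. Cells were reverse-transfected with a control siRNA against Renilla luciferase (siCtrl) or with an siRNA pool against RAD21 (siRAD21), and received 400 nM OHT or ethanol at the same moment. RNA was taken 24 h or 48 h later. The groups siCtrl 24h, siCtrl OHT 24h, siRAD21 24h, siRAD21 OHT 24h, siRAD21 48h and siRAD21 OHT 48h held 2 libraries each, and siCtrl 48h and siCtrl OHT 48h held 3 each, which makes 18 libraries. The ethanol groups received no OHT.

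E2F proteins set the rate at which S-phase genes are transcribed, and E2F1 to E2F6 bind DNA with a DP partner. E2F1, E2F2 and E2F3 are the activators, E2F4 and E2F5 act as repressors together with pocket proteins, and E2F6, E2F7 and E2F8 repress without them. RB1 and RBL1 (p107) are pocket proteins that hold E2F factors in an inactive or repressive state until cyclin-dependent kinases phosphorylate them. Several genes of the family are themselves E2F targets, and Myc is known to induce activator E2Fs.

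Levels are given as eRPKM, exonic reads scaled to transcript length and to the mapped reads of the library. Levels of different genes can be compared per length only roughly, because the cap described below lowers high genes more than low ones. Differences are log2 fold changes on log2(eRPKM + 0.5), which understates the change of low genes. A gene was said to rise or fall where limma's Benjamini-Hochberg adjusted p over the 14993 genes tested was under 0.05 and the log2 fold change was past 0.5 in either direction. All 10 members passed the filter for testing, a mean of at least 1 eRPKM over all libraries. Each library held between 9647501 and 12678599 mapped reads, and the members had between 62 reads (E2F5) and 2447 reads (E2F2) per library. Duplicate reads had been removed, which caps the level a gene can reach, and members lay between 1.67% and 42.5% of that cap, with E2F4 nearest to it. RAD21 itself was between 66.4 and 96.9 eRPKM in the siCtrl libraries and between 11.1 and 18.6 eRPKM in the siRAD21 libraries. MYC was between 29.4 and 57.5 eRPKM, and reads of the endogenous gene and of the MycER transgene were not separated. Without OHT its means were 53.4 (siCtrl) and 44.7 eRPKM (siRAD21) at 24 h, and 52.3 and 57.0 eRPKM at 48 h. With OHT they were 41.1 (siCtrl) and 30.0 eRPKM (siRAD21) at 24 h, and 44.9 and 34.4 eRPKM at 48 h. Of 9 markers of osteosarcoma lines, 7 had a median of at least 1 eRPKM, while COL1A2 and TWIST1 were at or near 0. Of 10 markers of other cell types 4 did, the epithelial EPCAM, CDH1, KRT8 and KRT18, whereas HBB, CD3E and ALB had medians of 0. The 2 siRAD21 OHT 48h libraries differed by no more than sampling noise, with a chi-square per gene of 0.9819 against 1.037 to 3.909 in the other pairs of one group. They were therefore counted as 1 sample in means, with no SD, while the tests held both libraries. Averaging them in the tests ended the call of E2F5 in the 48 h interaction and changed no other call of a member. The study's methods call the RNA-seq replicates biological, while the labels do not say which libraries came from separate cultures. The p-values rest on the spread between these libraries. Groups that do not overlap are described as such, but with so few libraries this is easily reached, and its share over all genes was not counted. In bulk RNA, fewer cells in a phase of the cell cycle and less RNA per cell cannot be told apart.

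The sequences just upstream of the annotated starts of E2F1, E2F2 and RBL1 are shown because these members fell together at 48 h of RAD21 silencing, and because E2F sites lie next to their starts. They are the 250 bases before the start in RefSeq, matched once each to GRCh37 and written 5′ to 3′ on the strand of the gene. Capitals mark exact matches, on either strand, to the E2F site forms TTTGGCGC, TTTCCCGC, TTTCGCGC and TTTGCCGC. E2F1 is at chr20:32274192-32274441, E2F2 at chr1:23857726-23857975 and RBL1 at chr20:35724401-35724650, all on the minus strand.
E2F1: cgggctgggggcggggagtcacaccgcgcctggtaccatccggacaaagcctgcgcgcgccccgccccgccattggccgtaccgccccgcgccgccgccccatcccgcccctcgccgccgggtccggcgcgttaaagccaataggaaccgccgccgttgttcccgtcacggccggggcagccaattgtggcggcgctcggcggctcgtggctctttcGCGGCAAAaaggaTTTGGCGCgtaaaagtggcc
E2F2: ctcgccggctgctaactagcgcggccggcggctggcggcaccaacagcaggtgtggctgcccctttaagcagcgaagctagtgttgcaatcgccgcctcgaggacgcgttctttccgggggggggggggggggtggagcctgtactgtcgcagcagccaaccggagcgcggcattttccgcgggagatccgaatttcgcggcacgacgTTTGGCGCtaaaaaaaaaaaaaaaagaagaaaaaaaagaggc
RBL1: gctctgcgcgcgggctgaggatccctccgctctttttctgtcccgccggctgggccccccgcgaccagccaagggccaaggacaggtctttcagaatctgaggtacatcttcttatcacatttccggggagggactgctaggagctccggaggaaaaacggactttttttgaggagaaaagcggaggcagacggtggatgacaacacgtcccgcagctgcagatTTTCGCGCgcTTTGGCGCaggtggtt
Counted from the start, with the base before it as position -1, E2F1 held matches at -33 to -26 and at -20 to -13. E2F2 held 1 match at -42 to -35. RBL1 held matches at -26 to -19 and at -16 to -9. Of 35116 upstream windows of this length in the RefSeq table, 979 (2.79%) held such a match. The windows shown were chosen partly for their matches, so this share is no test of them.

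Among the other members, E2F3 had windows at 2 starts, and its first held 1 E2F site at -53 to -46 and a CHR element (TTTGAA, in 13.3% of all windows). The second E2F3 window held the E-box CACGTG at -80 to -75, a sequence in 6.34% of all windows. No E2F site was matched in the windows of E2F4, E2F6, E2F7 and RB1, and the RB1 entry starts inside the gene. E2F5 and E2F8 had no entry. Of the 46 genes in a list of E2F targets described further down, 39 had an entry and 16 (41.0%) held an E2F site in any of their windows. This share is per gene, while those of all windows are per window, so they are not directly comparable. A match describes the letters only and was not tested as a binding site.

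The family spanned a wide range of levels in control cells, with E2F4 on top and E2F5 at the bottom in all 8 groups. In siCtrl 48h libraries E2F4 averaged 58.5 ± 1.30 eRPKM (SD, n = 3), E2F1 38.1 ± 2.67, E2F6 29.5 ± 1.17 and E2F7 26.0 ± 1.21. E2F3 (23.3 ± 1.23) and E2F2 (22.6 ± 1.67) followed and overlapped each other, as did RB1 (19.3 ± 0.727) and RBL1 (18.7 ± 1.12). E2F8 (11.6 ± 0.101) and E2F5 (4.38 ± 0.652) were lowest. The order was different in siRAD21 48h libraries, where E2F1 (20.8 eRPKM) stood below E2F6 (29.2) and E2F7 (28.4), overlapping RB1 (20.3). E2F2 varied most over all libraries, by 3.11-fold between its lowest and highest value, while E2F6 varied by 1.41-fold and E2F4 by slightly less.

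**Figure D1:**
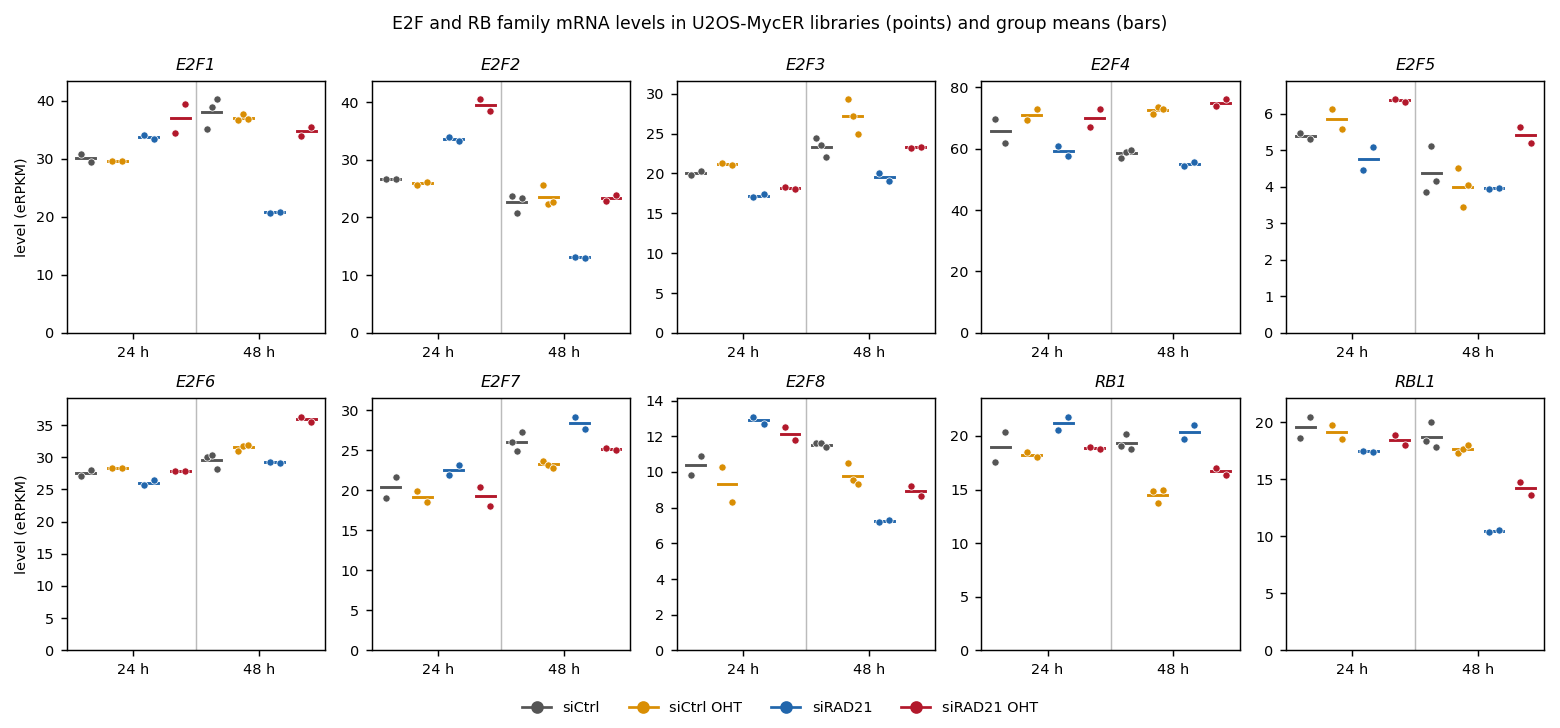
Level in eRPKM (vertical axes, from 0) of the 10 members in each of 18 libraries (points), with group means (bars), at 24 h and 48 h. E2F1, E2F2, E2F8 and RBL1 have their lowest group in siRAD21 48h, with means of 20.8, 13.1, 7.26 and 10.5 eRPKM. E2F4 (55.0) and E2F5 (3.96), which did not pass for silencing at 48 h, also have their lowest group mean there.

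RAD21 silencing for 48 h lowered 4 of the 10 members, E2F1, E2F2, E2F8 and RBL1, and raised none. Across all genes tested 11.2% fell and 12.6% rose in this comparison. By class, 2 of 3 activators, 1 of 5 repressors and 1 of 2 pocket proteins fell. The median log2 difference was -0.76 over the activators and -0.09 over the repressors, beside -0.01 over all genes tested.

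E2F1, the activator that also links the pathway to apoptosis (chr20:32263283-32274191, minus strand), was at 35.1, 39.0 and 40.3 eRPKM in the siCtrl 48h libraries and at 20.7 and 20.9 eRPKM in the siRAD21 48h libraries. The groups did not overlap, and both silenced libraries were below every other library of the series. E2F1 fell to 0.552 of its control level, a log2 fold change of -0.86 (SE 0.0594, limma adjusted p = 3.35e-08). E2F2, an activator close to E2F1 in function (chr1:23832930-23857725, minus strand), was at 23.8, 20.7 and 23.4 eRPKM in siCtrl 48h and at 13.2 and 13.0 eRPKM in siRAD21 48h. Again the silenced libraries were the lowest of all. Its log2 fold change was -0.76 (SE 0.0643, limma adjusted p = 2.33e-07). E2F3, the activator that stays high in cycling cells (chr6:20402110-20493945, plus strand), was at 24.4, 23.5 and 22.0 eRPKM in siCtrl 48h and at 19.5 ± 0.721 eRPKM (SD, n = 2) in siRAD21 48h. The groups did not overlap, but the log2 difference of -0.25 (95% confidence interval -0.38 to -0.12) was short of the fold threshold. Its interval did not reach those of E2F1 (-0.98 to -0.73) and E2F2 (-0.90 to -0.63).

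Among the repressors E2F8, which with E2F7 counters E2F1 (chr11:19245610-19263167, minus strand), was the member that fell. It was at 11.6, 11.6 and 11.4 eRPKM in siCtrl 48h and at 7.18 and 7.33 eRPKM in siRAD21 48h, with a log2 fold change of -0.64 (SE 0.0799, limma adjusted p = 1.12e-05). The silenced libraries were again the lowest of the series. E2F7, its closest relative (chr12:77415028-77459349, minus strand), was at 26.0, 24.9 and 27.3 eRPKM in siCtrl 48h and at 29.2 and 27.6 eRPKM in siRAD21 48h. The silenced libraries were both above the controls, yet the log2 difference of 0.13 (95% confidence interval -0.01 to 0.26) did not pass. E2F4, the main repressor partner of the pocket proteins in resting cells (chr16:67226058-67232821, plus strand), was at 57.1, 58.8 and 59.6 eRPKM in siCtrl 48h and at 54.2 and 55.7 eRPKM in siRAD21 48h. Its log2 difference was -0.09 (95% confidence interval -0.20 to 0.02). E2F6, which represses through Polycomb-like complexes (chr2:11584501-11606303, minus strand), had 28.2 to 30.3 eRPKM in siCtrl 48h and 29.1 to 29.3 eRPKM in siRAD21 48h, so the groups overlapped. For E2F5, at 3.87, 5.11 and 4.15 eRPKM in siCtrl 48h and at 3.95 and 3.96 eRPKM in siRAD21 48h, the groups overlapped too. In the GENCODE annotation E2F5 shares 991 exon bases with RBIS on the other strand, and the library kit does not mark strand. The deposited E2F5 value counts 1856 bases, against 5993 exon bases in GENCODE. Whether it includes shared bases, and so reads of RBIS, was not tested.

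Of the pocket proteins, RBL1, a partner of repressor E2Fs (chr20:35624752-35724400, minus strand), was at 18.7 ± 1.12 eRPKM (SD, n = 3; lowest 17.8) in siCtrl 48h and at 10.4 and 10.6 eRPKM in siRAD21 48h. The groups were far apart and RBL1 fell to 0.571 of its control level, with a log2 fold change of -0.81 (SE 0.0596, limma adjusted p = 6.26e-08). In GENCODE RBL1 shares 213 exon bases with an antisense gene, ENSG00000269846. Whether these bases were counted for RBL1, and so whether reads of both genes are mixed, was not tested. RB1, the retinoblastoma protein and main inhibitor of activator E2Fs (chr13:48877880-49173572, plus strand), was at 19.1, 20.2 and 18.8 eRPKM in siCtrl 48h and at 19.7 and 21.0 eRPKM in siRAD21 48h. The groups overlapped and the log2 difference was 0.07 (95% confidence interval -0.06 to 0.20). In every alternative analysis that kept the fold threshold, the log2 fold changes of E2F1, E2F2, E2F8 and RBL1 stayed between -0.93 and -0.61, and limma or voom adjusted p was at most 0.000391.

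**Figure D2:**
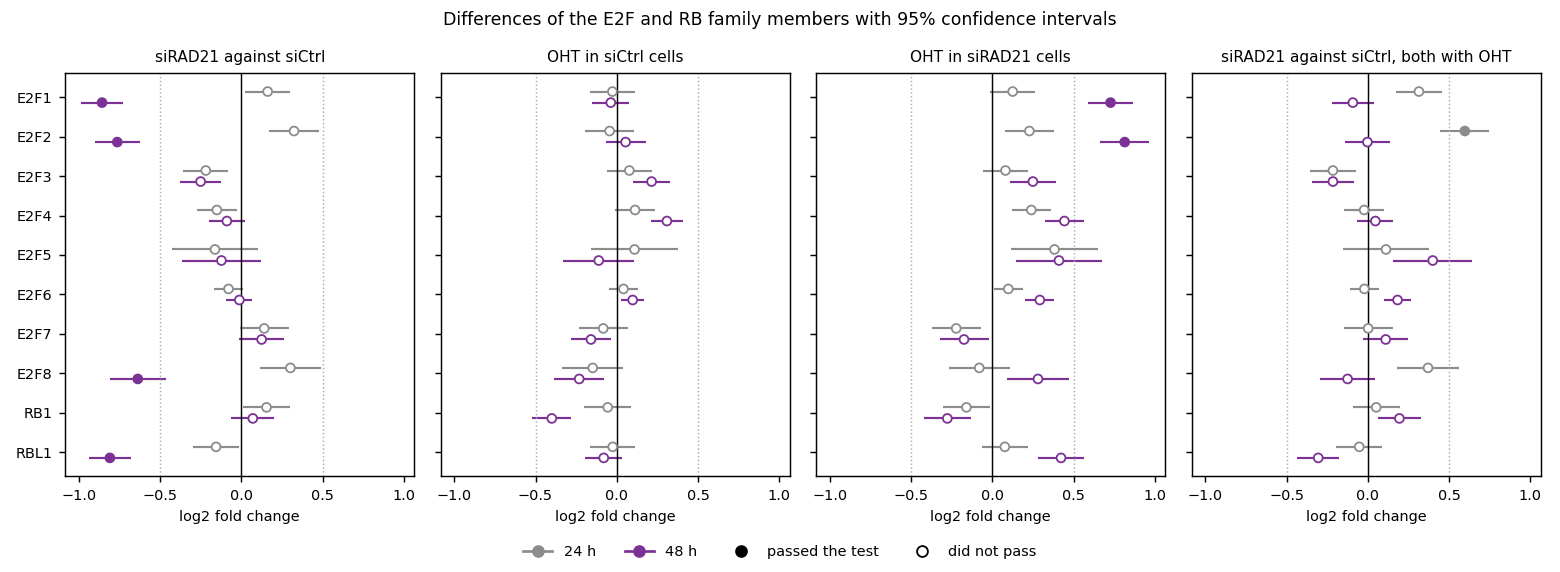
Log2 fold change (horizontal axes, with 95% confidence intervals) of the 10 members in 4 comparisons, at 24 h (grey) and 48 h (purple), with filled points for those that passed the test and dotted lines at the fold threshold. At 48 h E2F1, E2F2, E2F8 and RBL1 lie left of -0.5 for silencing, and E2F1 and E2F2 lie right of 0.5 for OHT in siRAD21 cells.

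At 24 h of silencing none of the 10 members passed, with limma or with voom, while 5.83% of all genes rose and 2.6% fell. An unadjusted limma p under 0.05 was reached by 7 members and by 5535 of the 14993 genes tested. Of the 4 members that fell at 48 h, E2F1, E2F2 and E2F8 lay above the control at this time. E2F2 was at 26.7 and 26.7 eRPKM in siCtrl 24h and at 34.0 and 33.2 eRPKM in siRAD21 24h, a log2 difference of 0.32 (limma adjusted p = 0.00365) that was short of the fold threshold. E2F8 was at 9.83 and 10.9 eRPKM in siCtrl 24h and at 13.1 and 12.7 eRPKM in siRAD21 24h, with a log2 difference of 0.30 (limma adjusted p = 0.0203). E2F1 was at 30.9 and 29.4 eRPKM in siCtrl 24h and at 34.2 and 33.4 eRPKM in siRAD21 24h. In all of these the silenced libraries lay above the controls without overlap, but every member was without overlap, one way or the other, in this comparison. RBL1 was at 18.6 and 20.5 eRPKM in siCtrl 24h and at 17.5 and 17.4 eRPKM in siRAD21 24h, and E2F3 was at 19.8 and 20.3 eRPKM and at 17.0 and 17.4 eRPKM. Both lay below their controls without overlap, with log2 differences of -0.16 (limma adjusted p = 0.0982) and -0.22 (limma adjusted p = 0.0231), the second short of the fold threshold. E2F4 was at 69.6 and 62.0 eRPKM in siCtrl 24h and at 60.8 and 57.5 eRPKM in siRAD21 24h, with a log2 difference of -0.15 (limma adjusted p = 0.0649). RB1 was at 17.6 and 20.4 eRPKM and at 20.6 and 21.8 eRPKM, a log2 difference of 0.16 (limma adjusted p = 0.111).

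The change in the silencing effect between 24 h and 48 h was tested directly, as the 48 h log2 fold change minus the 24 h one, and 4 members passed, all downwards, where 6.86% of all genes were lower and 3.85% higher. The difference was -1.02 for E2F1 (SE 0.0881, limma adjusted p = 4.61e-06) and -1.09 for E2F2 (SE 0.0953, limma adjusted p = 4.79e-06). It was -0.94 for E2F8 (SE 0.118, limma adjusted p = 9.37e-05) and -0.65 for RBL1 (SE 0.0884, limma adjusted p = 0.00016). For the other 6 members it lay between -0.08 (RB1) and 0.07 (E2F6). In siCtrl cells alone no member passed between 24 h and 48 h by limma or voom. Of all genes 5.53% were higher and 6.91% lower at 48 h. An unadjusted limma p under 0.05 was reached by 7 members and by 7861 of the 14993 genes tested. The largest differences among the members were 0.35 for E2F7 and 0.33 for E2F1.

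MycER activation in siCtrl cells moved no member past the thresholds at either time. At 24 h 3.68% of all genes rose and 5.1% fell. No member had an unadjusted limma p under 0.05 then, beside 5552 of the 14993 genes tested. At 48 h 7.78% of all genes rose and 10.1% fell. An unadjusted limma p under 0.05 was then reached by 6 members and by 8748 of the 14993 genes. Voom on the reads called no member at either time. The largest difference at 48 h was that of RB1, which was at 14.5 ± 0.705 eRPKM (SD, n = 3) in siCtrl OHT 48h, every library below the 18.8 to 20.2 eRPKM of siCtrl 48h. Its log2 difference was -0.40 (SE 0.0553, limma adjusted p = 3.34e-05), short of the fold threshold. E2F4 was at 71.2, 73.6 and 72.8 eRPKM with OHT, above the controls without overlap, a log2 difference of 0.31 (SE 0.046, limma adjusted p = 6.64e-05). E2F1, at 36.7, 37.7 and 36.9 eRPKM, and E2F2, at 25.7, 22.3 and 22.6 eRPKM, overlapped their controls, with log2 differences of -0.04 (95% confidence interval -0.15 to 0.08) and 0.05 (-0.07 to 0.18). E2F3, at 29.3, 27.2 and 24.9 eRPKM with OHT, lay above its controls, and E2F7, at 23.7, 23.2 and 22.8 eRPKM, below them, with log2 differences of 0.21 (limma adjusted p = 0.00363) and -0.16 (limma adjusted p = 0.0308). E2F8, at 10.5, 9.53 and 9.33 eRPKM, was also below its controls without overlap, a log2 difference of -0.23 (limma adjusted p = 0.014). None of these reached the fold threshold. RBL1 (17.7 ± 0.382 eRPKM, SD, n = 3) and E2F5 (4.52, 3.46 and 4.04 eRPKM) overlapped theirs.

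In siRAD21 cells OHT raised E2F1 and E2F2 at 48 h and lowered no member, while 12.4% of all genes rose and 16.2% fell. E2F1 was at 34.0 and 35.5 eRPKM in siRAD21 OHT 48h against 20.7 and 20.9 eRPKM in siRAD21 48h, 1.66-fold higher, with a log2 fold change of 0.73 (SE 0.0651, limma adjusted p = 4.63e-07). E2F2 was at 22.9 and 23.9 eRPKM against 13.2 and 13.0 eRPKM, a log2 fold change of 0.81 (SE 0.0704, limma adjusted p = 3.31e-07). For both genes the groups were widely separated. The other 8 members did not pass. A limma adjusted p under 0.05 was reached by all 10, and by 9061 of the 14993 genes tested. RBL1 was at 14.8 and 13.6 eRPKM with OHT, above siRAD21 48h and below every siCtrl 48h library, a log2 difference of 0.42. E2F4 was at 73.8 and 76.1 eRPKM with OHT, a log2 difference of 0.44 that became 0.52, past the threshold, once the cap on levels from duplicate removal was undone. E2F5 was at 5.64 and 5.21 eRPKM with OHT, with a log2 difference of 0.41 that became 0.63, past the threshold, with quantile normalization. E2F8 was at 9.21 and 8.65 eRPKM, a log2 difference of 0.28, and still below all siCtrl 48h libraries. RB1, at 17.0 and 16.4 eRPKM, and E2F7, at 25.3 and 25.0 eRPKM, lay below siRAD21 48h, with log2 differences of -0.28 and -0.17. At 24 h OHT in siRAD21 cells moved none of the 10 members past the thresholds by limma or voom. Of all genes 4.29% were higher and 7.62% lower. An unadjusted limma p under 0.05 was reached by 6 members and by 6676 of the 14993 genes tested.

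Whether the OHT effect differed between siRAD21 and siCtrl cells was tested as an interaction. At 48 h, 5 members passed, all upwards, beside 3.33% of all genes higher and 3.97% lower. The interaction was 0.76 for E2F1 (SE 0.084, limma adjusted p = 6.41e-05) and 0.76 for E2F2 (SE 0.0909, limma adjusted p = 0.000113), and both passed in every alternative that kept the fold threshold. For E2F8 (0.51, limma adjusted p = 0.00704) and RBL1 (0.50, limma adjusted p = 0.00122) the value sat at the fold threshold. E2F8 ranged from 0.47 to 0.57 and RBL1 from 0.44 to 0.57 over the alternatives, and limma or voom adjusted p was at most 0.0415. The E2F8 value was 0.49 with a pseudocount of 1, 0.50 without siCtrl OHT 48h replicate 2, 0.48 without replicate 3 of that group, 0.50 without siRAD21 48h replicate 1 and 0.47 without siRAD21 OHT 48h replicate 1, all just short of the threshold. RBL1 was just short of it without siCtrl 48h replicate 2 (0.46), siCtrl OHT 48h replicate 1 (0.49), siRAD21 48h replicate 1 (0.49) or siRAD21 OHT 48h replicate 1 (0.44), with a pseudocount of 1 (0.49) and with values centred on the median (0.50). E2F5 (0.52, limma adjusted p = 0.0386) lost the call when 1 library of siRAD21 48h, siRAD21 OHT 48h or siRAD21 OHT 24h was left out, and without siCtrl 48h replicate 2 or siCtrl OHT 48h replicate 2 or 3. It was also lost with a pseudocount of 1, where its value was 0.47. Its adjusted p was 0.0634 with the replicate block, 0.104 with the siRAD21 OHT 48h libraries averaged, 0.0943 with only the groups compared and 0.0556 with no filter on low values. Voom called 4 members, without E2F5 (adjusted p = 0.0636). The adjusted p of E2F5 was 0.0167 to 0.142 over all alternatives. At 24 h no gene passed the interaction test with limma (0% higher and 0% lower), and voom called no member. There 1 member had an unadjusted limma p under 0.05, beside 906 of the 14993 genes tested.

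With OHT in both arms, the difference between siRAD21 and siCtrl at 48 h passed for no member by limma or voom. Of all genes 8.47% were higher and 7.74% lower. While 5 members had an unadjusted limma p under 0.05, so did 7745 of the 14993 genes tested. E2F1 (log2 difference -0.09, 95% confidence interval -0.22 to 0.04) and E2F2 (-0.00, -0.14 to 0.14) were near 0. RBL1 was furthest down, at -0.31 (-0.43 to -0.18), and E2F5 furthest up, at 0.40 (0.16 to 0.64). Against siCtrl cells without OHT, siRAD21 OHT cells at 48 h had no member past the thresholds by limma or voom. Past them, 13.1% of all genes were higher and 14.9% lower. An unadjusted limma p under 0.05 was reached by 7 members and by 9523 of the 14993 genes tested. Here RBL1 was at -0.39 and E2F8 at -0.36, while E2F4 was at 0.35 and E2F6 at 0.28. These comparisons share libraries with the ones above.

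At 24 h the member that passed with both treatments was E2F2. It was at 40.5 and 38.4 eRPKM in siRAD21 OHT 24h, the highest levels of E2F2 in the series, against 25.6 and 26.2 eRPKM in siCtrl OHT 24h and 26.7 and 26.7 eRPKM in siCtrl 24h. It rose by 0.60 on the log2 scale against siCtrl OHT (SE 0.0704, limma adjusted p = 4.14e-05), where 3.74% of all genes rose and 2.73% fell. Against siCtrl it rose by 0.55 (SE 0.0704, limma adjusted p = 3.44e-05), where 6.62% of all genes rose and 6.51% fell. E2F8 was at 12.5 and 11.8 eRPKM against 10.3 and 8.34 eRPKM in siCtrl OHT 24h, a log2 difference of 0.37 that became 0.52 and passed when siCtrl OHT 24h replicate 1 was left out. E2F1 was at 34.5 and 39.5 eRPKM against 29.6 and 29.6 eRPKM, a log2 difference of 0.31 that was short of the fold threshold.

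Summed over genes, activators and repressors were compared per library as a description, with no test. The summed level of E2F1, E2F2 and E2F3 was 83.4, 83.1 and 85.6 eRPKM in siCtrl 48h and 53.9 and 52.9 eRPKM in siRAD21 48h. The sum of E2F4 to E2F8 was 129, 131 and 131 eRPKM and 124 and 124 eRPKM in the same libraries. The ratio of the activator sum to the repressor sum was 0.636 to 0.655 in siCtrl 48h and 0.427 to 0.435 in siRAD21 48h, the lowest of the 8 groups. With OHT it was 0.598 to 0.650 in siCtrl OHT 48h and 0.533 to 0.550 in siRAD21 OHT 48h, between the silenced and the control ranges. At 24 h the ratio was higher with siRAD21 than with siCtrl, at 0.673 to 0.676 in siRAD21 24h and 0.591 to 0.597 in siCtrl 24h. The same held among OHT groups, at 0.695 to 0.700 in siRAD21 OHT 24h and 0.571 to 0.575 in siCtrl OHT 24h. E2F4 makes up much of the repressor sum, and without it the ratio was 1.16 to 1.21 in siCtrl 48h and 0.773 to 0.777 in siRAD21 48h. These sums and ratios are on capped levels, and E2F4, the member nearest to the cap, is the most understated. In siRAD21 OHT 48h the repressor sum was 150 eRPKM in both libraries, the highest of the series, while the activator sum was 80.2 and 82.8 eRPKM.

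**Figure D3:**
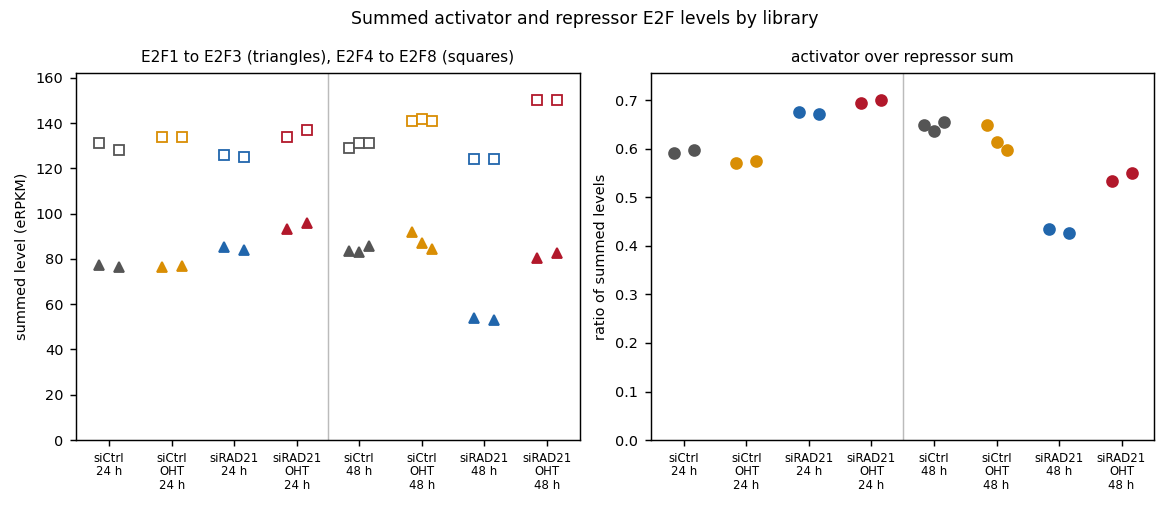
Left, summed level in eRPKM (from 0) of E2F1 to E2F3 (triangles) and E2F4 to E2F8 (squares) in each library, coloured by treatment (siCtrl grey, siCtrl OHT orange, siRAD21 blue, siRAD21 OHT red); right, the ratio of both sums. The ratio is lowest in siRAD21 48h (0.427 to 0.435) and highest in siRAD21 OHT 24h (0.695 to 0.700).

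The DP partners and remaining regulators form a list of 28 genes, of which 27 were tested. With siRAD21 at 48 h, 1 rose and 8 fell, beside 12.6% and 11.2% of all genes, and the list median was -0.22 on the log2 scale, beside -0.01 over all genes tested. The largest falls were those of CCNE2 (-1.14, limma adjusted p = 1.15e-07) and CCNE1 (-0.76, limma adjusted p = 1.47e-08), the E-type cyclins that drive entry into S phase. LIN52, a MuvB core subunit, fell too (-0.65, limma adjusted p = 8.62e-09), and CCND2, a D-type cyclin, rose (0.60, limma adjusted p = 5.41e-09). TFDP1, the main DP partner of E2Fs, was at 46.8 to 47.3 eRPKM in siCtrl 48h and 34.8 to 36.9 eRPKM in siRAD21 48h, a log2 difference of -0.39 that was short of the fold threshold. In siRAD21 cells OHT raised TFDP1 at 48 h by 0.57 on the log2 scale (SE 0.0396, limma adjusted p = 4.39e-08), to 53.3 and 53.5 eRPKM. TFDP2, a further DP partner, was at 8.25 to 9.18 eRPKM in siCtrl 48h and 9.97 to 10.4 eRPKM in siRAD21 48h, and did not pass. TFDP3 was listed at 0 in all libraries but 1 and was not tested. RBL2 (p130), the pocket protein of resting cells, was at 19.4 to 21.3 eRPKM in siCtrl 48h and at 18.8 eRPKM in both siRAD21 48h libraries. With OHT it was at 14.1 to 15.1 eRPKM in siCtrl 48h cells, a log2 difference of -0.48 (limma adjusted p = 6.63e-06), short of the fold threshold and beside -0.40 for RB1.

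The E2F target list, S-phase genes that E2F factors are known to induce, holds 46 genes, and all were tested. At 24 h of silencing no gene of the list passed with limma, beside 5.83% of all genes higher and 2.6% lower. An unadjusted limma p under 0.05 was reached by 13 of the list and by 5535 of the 14993 genes tested. The list median of the log2 difference was -0.07. At 48 h 37 of 46 fell and none rose, beside 11.2% and 12.6% of all genes. All 46 lay below 0, and the median was -0.71, beside -0.01 over all genes tested. The largest falls were those of GINS1 (-1.34, limma adjusted p = 1.67e-10), GINS2 (-1.26, limma adjusted p = 9.46e-09) and PRIM1 (-1.23, limma adjusted p = 1.37e-08), which act in the replication helicase and primase. OHT in siCtrl cells at 48 h raised 1 gene, TIPIN of the replication fork (0.65, limma adjusted p = 1.71e-06), beside 7.78% of all genes higher. The list median was 0.12, beside -0.01 over all genes tested, with 36 of the list above 0 and 10 below. A limma adjusted p under 0.05 was reached by 28 of the list and by 7991 of the 14993 genes tested. OHT in siRAD21 cells raised 27 of 46 and lowered none, beside 12.4% and 16.2% of all genes, with a median of 0.60, beside -0.02 over all genes tested. With OHT in both arms 7 of 46 were lower in siRAD21 cells, beside 7.74% of all genes, with a list median of -0.21 beside -0.0017 over all genes tested. The interaction at 48 h passed upwards for 19 of 46, beside 3.33% of all genes, with a list median of 0.49 beside 0.02 over all genes tested. The lists were chosen with earlier results of these data known, so their directions are a description and not independent support.

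**Figure D4:**
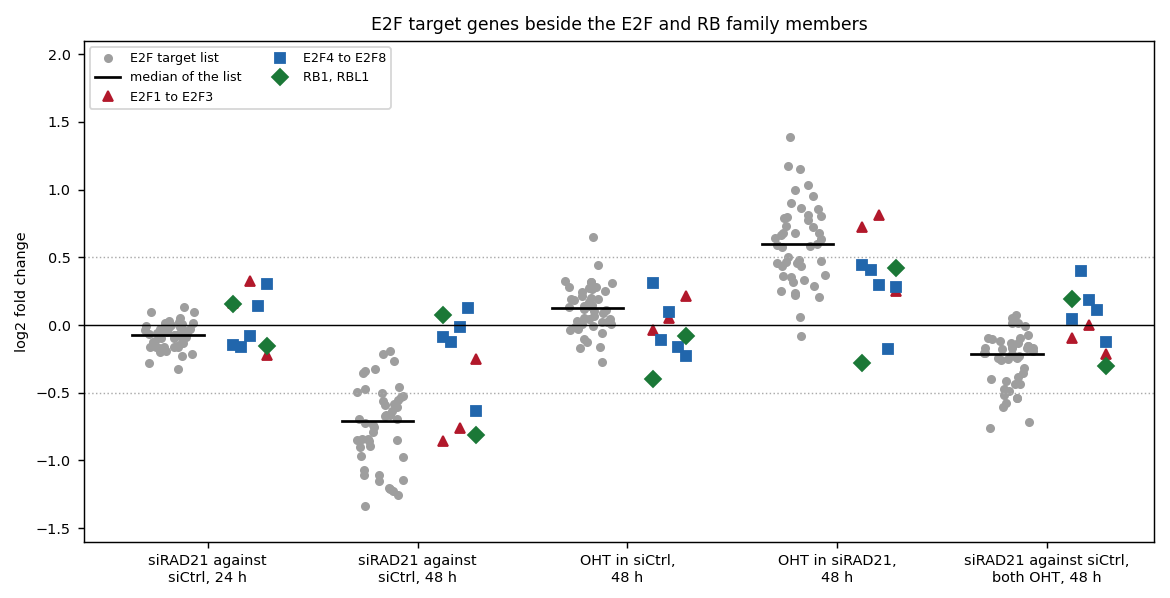
Log2 fold change (vertical axis) of the 46 E2F target genes (grey points, bar at their median) beside E2F1 to E2F3, E2F4 to E2F8 and the pocket proteins in 5 comparisons, with dotted lines at the fold threshold. The list median is -0.07 at 24 h and -0.71 at 48 h of silencing, and 0.60 for OHT in siRAD21 cells.

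The genes whose pattern over the 8 group means was most like that of each member are given by Pearson's r of log2(eRPKM + 0.5), among 14983 other genes tested, as a description over 8 points that share libraries. For E2F1 they were MTHFS (r = 0.965), RRM1 (0.959) and HIST1H4A (0.957). For E2F2 they were LSS (0.997), WDR34 (0.987) and FANCE (0.982), and for E2F3 PAQR3 (0.990), DDX3X (0.990) and IPO11 (0.981). For RBL1 they included LAPTM4B (0.994) and FAM222A (0.992), and for E2F8 they were SDC1 (0.974), LINC00634 (0.958) and CARHSP1 (0.958). For E2F4 they were TRIT1 (0.997), GNL3 (0.995) and EXOSC5 (0.994), and for E2F5 ZNF32 (0.972), GSTA4 (0.952) and HTATSF1 (0.946). For E2F6 they were FOSB (0.991), SPCS3 (0.989) and RPL37 (0.987), for E2F7 PPM1A (0.987), NKTR (0.986) and USP4 (0.985), and for RB1 DIP2C (0.979), TRPT1 (0.975) and TRO (0.969). Between members the closest pattern was that of E2F2 and E2F8 (r = 0.858), and the most opposed that of E2F3 and RB1 (r = -0.857). E2F1 and E2F2 had r = 0.708, while E2F2 and E2F7 had r = -0.784.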

How the data were processed

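RNA was measured by rRNA-depleted RNA-seq (TruSeq v2) in 18 libraries of U2OS-MycER cells. The authors masked or trimmed bases of low quality, ran TopHat2 against hg19 and discarded PCR duplicates. They deposited 1 eRPKM, an RPKM over exons, for each gene and library. The submitters' processing notes name TopHat2 2.0.8 and featureCounts 1.4.5. The annotation is not given in the sources used here. Depth was recovered from the steps of the deposited values, which came out as whole reads for 22022 of 23399 genes (tolerance 0.005 reads), and duplicate removal left levels capped at 2 start positions per base. Gene positions are from GENCODE on GRCh37, and sequences from RefSeq.

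The members and lists were chosen with earlier results of these data known. Values were log2(eRPKM + 0.5) for genes with a mean of at least 1. A model of 8 group means was fitted with limma 3.58.1 (R 4.3.3, trended empirical Bayes), with Benjamini-Hochberg adjustment over 14993 genes in each of 14 comparisons. The study's methods use a model for counts, but the deposited values are not counts, so limma on the log scale was used. Named genes were all members, RBL2 and the DP partners, at most 3 rises and 3 falls per list with siRAD21 or OHT at 48 h, and the 3 genes most like each member. Tables used Python 3.11.15, pandas 2.3.3 and numpy 2.4.6. The procedure was tested on simulated data.

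Same-numbered libraries of siCtrl 48h and siCtrl OHT 48h deviated together (r = 0.258, 0.130 and 0.157), so a replicate block was tried. The other alternatives were pseudocounts of 0.1 and 1, a mean of at least 5 or no filter, median centring, quantile normalization, other variance models, only the groups compared, other fold thresholds, each library left out, and the siRAD21 OHT 48h libraries averaged. A further 3 alternatives were chosen after seeing the data: a voom fit to the reads recovered, levels with the cap from duplicate removal undone, and the block with the siCtrl 24h numbers crossed. One gene that the rule for named genes would list is not reported here.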

Additional observations from a re-analysis of the deposited data

Results flagged for a closer look

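The tests of a difference between effects passed for 5 members in all. The effect of RAD21 silencing differed between 24 h and 48 h for E2F1 (-1.02 on the log2 scale), E2F2 (-1.09), E2F8 (-0.94) and RBL1 (-0.65), each lower at 48 h. Of all genes 6.86% were lower and 3.85% higher in this test. The effect of OHT at 48 h differed between siRAD21 and siCtrl cells for E2F1 (0.76), E2F2 (0.76), E2F5 (0.52), E2F8 (0.51) and RBL1 (0.50), each higher in siRAD21 cells. In this interaction test 3.33% of all genes were higher and 3.97% lower. E2F5, E2F8 and RBL1 sit next to the fold threshold there, and the E2F5 value rests on 62 to 101 reads per library. Both sets of tests use the siRAD21 48h and siCtrl 48h libraries. No group held the 4 libraries needed to look for a library that stands apart.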

How the results depend on the processing

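Of 4746 member values recomputed under 34 alternatives, 0 changed sign after passing or while passing, and 61 changed sign without passing. The 4 falls with siRAD21 at 48 h passed in every alternative but a fold threshold of 1. The 2 rises with OHT in siRAD21 cells did too, and were joined by E2F5 with quantile normalization and by E2F4 with the cap undone. With no fold threshold, 3 members passed for siRAD21 at 24 h, beside 3870 of the 14993 genes tested. At that time 4 passed for OHT in siRAD21 cells (5276 of all genes) and 4 for siRAD21 with OHT in both arms (3000). Both treatments against siCtrl at 24 h gave 2 members (5154 of all genes). At 48 h 5 members passed for siRAD21 (8650 of all genes), 6 for OHT in siCtrl cells (7991) and 10 for OHT in siRAD21 cells (9061). For siRAD21 with OHT in both arms they were 5 (6777 of all genes), and for both treatments against siCtrl 6 (8944). The 48 h interaction gave 6 (2587 of all genes), and the comparison between times in siCtrl 6 (6774). With a threshold of 1, 2 passed for the change in the silencing effect between times and 0 in the other comparisons with a call. With a pseudocount of 1 the 48 h interaction passed for 2 members. Leaving out 1 library gave 2 to 5 members for that interaction and 1 to 2 for siRAD21 with OHT in both arms at 24 h. The replicate block left 4 members in that interaction (5 without it), ending E2F5 alone, and changed no other call. Crossing the siCtrl 24h numbers also left 4. Over all genes the siRAD21 comparison at 48 h called 1883 higher and 1676 lower, 1073 and 1216 with a mean of at least 5, and the split at 24 h went from 874 and 390 to 680 and 546 with quantile normalization. Low counts limit the precision of E2F5. The intervals above are for differences of group means, with a variance estimated from the spread between these libraries. They count both siRAD21 OHT 48h libraries.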
